A study of Mus musculus with 8 samples.

Results

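The pyruvate dehydrogenase complex and its kinases and phosphatases were followed as 10 listed genes of 34547 measured in mouse liver. They were 5 genes of the complex itself (Pdha1, Pdhb, Dlat, Dld and Pdhx), 3 kinase genes (Pdk1, Pdk2 and Pdk4) and 2 phosphatase genes (Pdp1 and Pdp2). Liver RNA was sequenced from 8 C57BL/6J mice, each given 2.5e+11 particles of adeno-associated virus (AAV, a vector that delivers genes to the liver) by tail vein at 8 weeks of age. In 4 mice the virus carried mouse Nudt7, whose product is a peroxisomal hydrolase of coenzyme A and its acyl esters, and in the other 4, the controls, it carried GFP, a fluorescent protein. Both groups were thus virus-treated, both were fasted for 24 h, and livers were taken 3 to 4 weeks after injection, at 11 to 12 weeks of age. The labels name no uninjected or fed group, and they state neither the promoter of the vector nor the sex of the mice nor a batch.

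The complex converts pyruvate to acetyl-CoA in mitochondria and so commits carbon from glucose to oxidation or fat synthesis. It is switched off when a kinase phosphorylates the alpha subunit of its first enzyme and on again when a phosphatase removes the phosphate. In the fasted liver the kinases, Pdk4 above all, are known to hold the complex off, which spares pyruvate for glucose synthesis, and acetyl-CoA, an activator of these kinases, is itself a product of the complex that contains coenzyme A.

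All 10 genes had enough reads to be tested, and none of the 10 passed an adjusted p under 0.05 between Nudt7 and GFP livers (two-sided quasi-likelihood test of edgeR, adjusted by Benjamini-Hochberg across 13678 genes), where 0.117% of all tested genes passed, 0.0439% higher and 0.0731% lower. At an unadjusted p under 0.05 the count was 0 of 10 against 8.28% of tested genes (4.25% higher and 4.03% lower), and 0 were called by DESeq2, which called 1.19% of the genes it tested. The levels of the 2 groups overlapped for each of the 10 genes, while 5.75% of tested genes had groups that did not overlap (2.74% higher and 3% lower). Of the 10 fold changes, 7 were positive and 3 negative, with a median of 0.10 log2 units; over all tested genes 50.2% were negative and the median was −0.001. Nudt7, the transgene, exceeded its control level 27.7-fold (log2 fold change 4.79, SE 0.33, edgeR adjusted p = 0.000122).

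The libraries held 11187806 to 23640734 estimated reads. Nudt7 replicate 3 stood apart from the rest: it lay at 63.1 on the first principal component, which carried 36.3% of the variance, against −19.9 to 2.8 for the other 7 livers. In that library the median deviation from the other livers was 0.77 log2 units higher for genes with short transcripts than for genes with long ones, a gap of −0.20 to 0.01 in the remaining livers. Its summed red blood cell markers stood at 1814 CPM (reads scaled to 1e+06 per library), against 303 to 642 CPM elsewhere. Hepatocyte markers summed to 62690 to 93630 CPM per liver. Of 9 marker lists, 2 had summed levels that did not overlap between the groups. Cholangiocyte markers stood at 31.8 to 42.5 CPM in Nudt7 and 17.4 to 29.4 CPM in GFP livers, and endothelial markers at 388 to 423 CPM and 440.4 to 476 CPM. Of 5 tested cholangiocyte markers, Spp1 alone had groups that did not overlap (10.51 to 21.25 CPM and 5.564 to 8.615 CPM). Of these 5, 4 had a positive log2 fold change and Krt7 alone a negative one (−0.05), with a median of 0.49. Of 7 endothelial markers, Stab1 alone had groups that did not overlap. Of these 7, 6 had a negative log2 fold change and Kdr alone a positive one (0.08), with a median of −0.11. The part of either marker list in the results was not tested. In a whole liver, fewer cells of a type and less RNA per cell cannot be told apart.

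The promoters of the 3 kinase genes, whose products act on the same substrate, are shown. Pdk4 varied far more between livers than Pdk1 or Pdk2, and a link of that spread to these letters was not tested. Each runs from 250 bases before to 50 after the RefSeq start site (GRCm38.p6, 5′ to 3′ on the strand of the gene), and capitals mark matches to the motifs searched.
Pdk4 (chr6:5496229-5496528, minus strand): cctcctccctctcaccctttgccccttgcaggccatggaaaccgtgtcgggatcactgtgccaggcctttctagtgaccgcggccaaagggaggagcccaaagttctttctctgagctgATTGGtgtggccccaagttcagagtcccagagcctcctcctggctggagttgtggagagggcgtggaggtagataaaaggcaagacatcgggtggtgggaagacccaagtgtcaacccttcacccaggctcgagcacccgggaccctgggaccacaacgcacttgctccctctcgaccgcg
Pdk2 (chr11:95041322-95041621, minus strand): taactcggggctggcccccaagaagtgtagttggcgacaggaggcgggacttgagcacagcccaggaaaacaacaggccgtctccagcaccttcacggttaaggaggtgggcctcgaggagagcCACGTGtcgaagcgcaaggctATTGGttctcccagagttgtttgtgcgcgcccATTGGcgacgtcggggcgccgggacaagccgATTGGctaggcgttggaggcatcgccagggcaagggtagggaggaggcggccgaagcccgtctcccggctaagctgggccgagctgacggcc
Pdk1 (chr2:71872974-71873273, plus strand): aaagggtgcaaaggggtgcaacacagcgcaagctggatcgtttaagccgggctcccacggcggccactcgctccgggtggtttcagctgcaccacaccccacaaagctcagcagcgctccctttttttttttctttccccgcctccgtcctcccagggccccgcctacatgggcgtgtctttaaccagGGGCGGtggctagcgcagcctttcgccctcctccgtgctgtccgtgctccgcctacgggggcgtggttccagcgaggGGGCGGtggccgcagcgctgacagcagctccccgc

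The motifs were searched on both strands of these 300 bases. The Pdk4 window held 1 CCAAT box (CCAAT, read as ATTGG on the strand shown), and the Pdk2 window held 3 of them and 1 E-box (CACGTG). The Pdk1 window held 2 GC boxes (GGGCGG). Over all 32851 RefSeq promoters of the same length, 37.4% held a CCAAT box, 7.15% an E-box and 35.7% a GC box. The FOXO core (GTAAACA, in 3.65% of promoters), the estrogen-related receptor element (TCAAGGTCA, 0.423%), the direct repeat bound by PPARs (in 0.0396%), the glucocorticoid receptor palindrome (in 0.475%) and the TATA box (TATAAA, 13.6%) were not in any of the 9 member windows in the table. The Pdk4 window held 12 CpG dinucleotides, against 25 in both the Pdk1 and the Pdk2 window and a median of 7 over all promoters. A match, or its absence, describes these letters in this window.

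Pdk4 encodes the kinase isoform that fasting, fatty acids and glucocorticoids induce. It lies on chromosome 6 (5483351 to 5496309, minus strand, GRCm38), and 99.3% (Nudt7) and 99.6% (GFP) of its reads fell on its full-length coding transcript of 3484 bases. Its level was 64.5, 229, 68.8 and 82.2 CPM in Nudt7 replicates 1 to 4 and 175, 101, 94.3 and 218 CPM in GFP replicates 1 to 4. Nudt7 replicate 2 was thus the highest of the 8 livers, while the other 3 Nudt7 livers lay below every GFP liver. Mean Pdk4 was 111 ± 78.8 CPM with Nudt7 and 147 ± 59.8 CPM with GFP (SD, n = 4 each). The log2 fold change was −0.41 (SE 0.43, 95% interval −1.36 to 0.55, edgeR adjusted p = 0.797), so the interval spanned folds from 0.388 to 1.46. An exact two-sided permutation test of mean log2 CPM gave a difference of −0.53 and p = 0.286, where the smallest p that 70 splits allow is 0.0286.

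Nudt7 replicate 2 set the size of this estimate. Without it, the log2 fold change of Pdk4 was −1.04 (SE 0.28, edgeR unadjusted p = 0.00417, adjusted p = 0.295), and the exact permutation p was 0.0857. Leaving out any other liver gave −0.56 to −0.14. The transgene level did not set this liver apart within its group: Nudt7 stood at 1599 CPM there, between 1301 CPM in replicate 1 and 3569 CPM in replicate 3 and close to 1555 CPM in replicate 4. Pdk4 was 68.8 CPM in the liver with the most Nudt7 and 64.5 CPM in the liver of its group with the least.

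**Figure D1:**
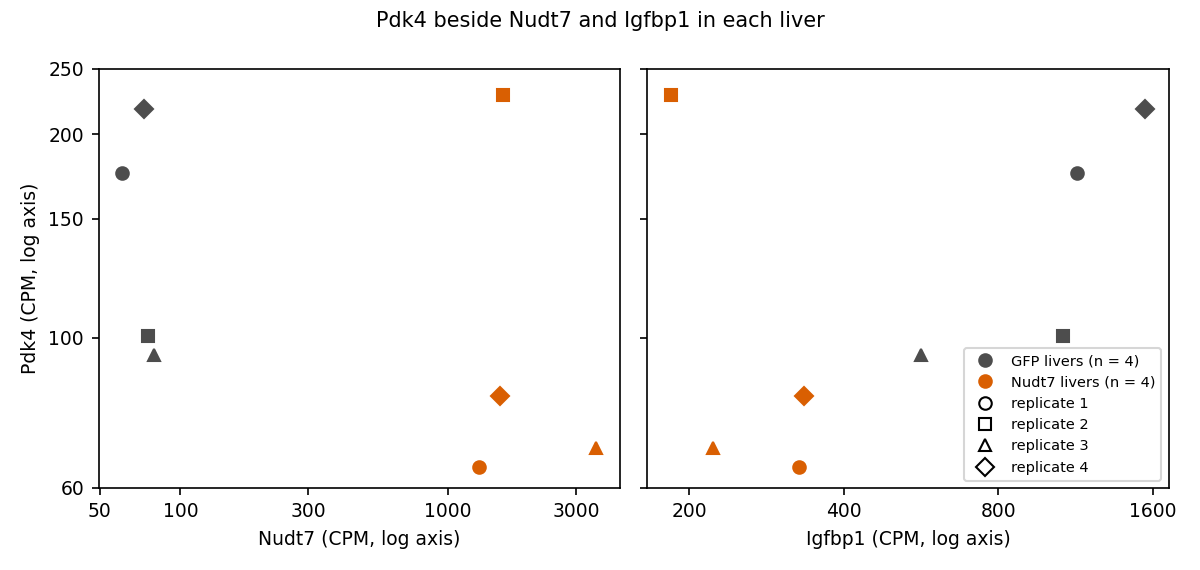
Pdk4 level (CPM, log axis) against the level of Nudt7 (left) and of Igfbp1 (right, both CPM, log axes), with 1 point per liver, colour for the group and marker shape for the replicate, which pairs nothing across groups. Nudt7 replicate 2 has the highest Pdk4 (229 CPM) with a middling Nudt7 level (1599 CPM) and the lowest Igfbp1 (184 CPM).

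Pdk4 also differed from liver to liver within a group more than most genes. Its within-group SD was 0.73 log2 units, at percentile 97.5 of the tested genes, and its highest liver exceeded its lowest 3.54-fold in Nudt7 and 2.31-fold in GFP livers. The other members spread less: Pdp2, the next, had an SD of 0.44 (percentile 83.0), and Pdha1, at the other end, an SD of 0.09 (percentile 2.0). Muscle and heart also express Pdk4. Their 10 markers summed to 0.859 to 2.43 CPM per liver, with Myh2, Myh4, Myh6 and Mb at 0 in all 8. Of 6 adipocyte markers, Lep was at 0 and Adipoq at 0.522 CPM or less. Their sum was 145 to 308 CPM in Nudt7 and 128 to 374 CPM in GFP livers, nearly all of it Cidec, a lipid droplet gene that liver also expresses. In the livers with the most Pdk4 this sum was 277 CPM (Nudt7 replicate 2), 154 CPM (GFP replicate 1) and 374 CPM (GFP replicate 4), and its part in the Pdk4 level was not tested.

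**Figure D2:**
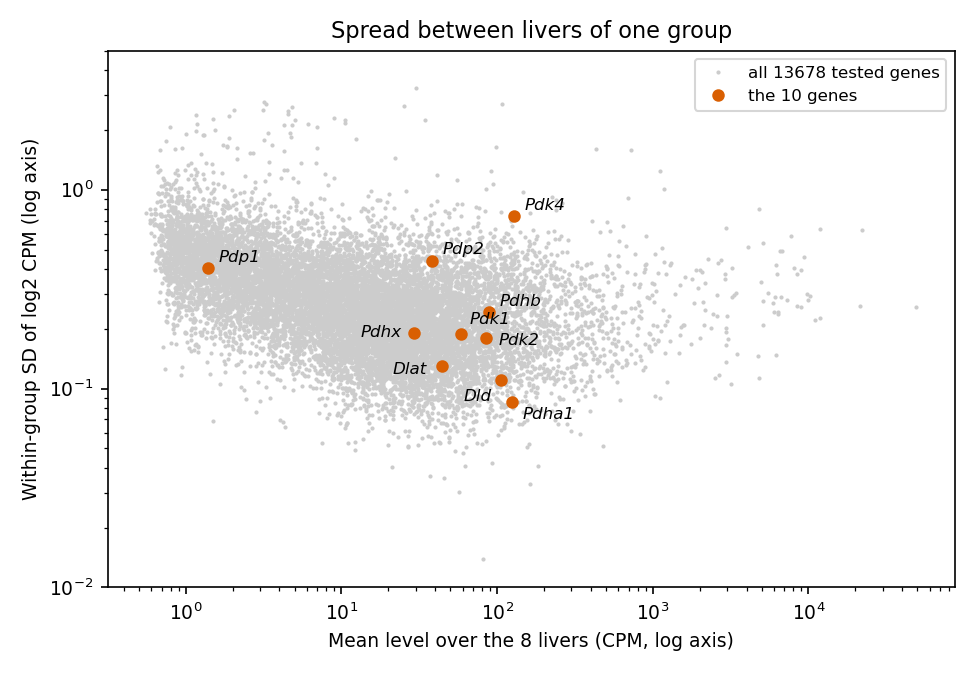
Within-group SD of log2 CPM against mean level over the 8 livers (CPM), both on log axes, for the 13678 tested genes (grey) and the 10 genes (orange, named). Pdk4 lies high for its level (SD 0.73), while Pdha1 (0.09), Dld (0.11) and Dlat (0.13) lie low.

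Pdk2, the kinase isoform found in most tissues, lies on chromosome 11 (95026258 to 95041354, minus strand) and was steadier than Pdk4. It stood at 70.7, 84.6, 95.2 and 101 CPM in Nudt7 livers and at 77.1, 76.1, 89.7 and 83.9 CPM in GFP livers. The GFP values lay within the range of the Nudt7 values, and the log2 fold change was 0.11 (SE 0.14, 95% interval −0.19 to 0.40, edgeR adjusted p = 0.834). Pdk1, the isoform known as a target of hypoxia signalling, lies on chromosome 2 (71873224 to 71903858, plus strand). Its level was 58.7, 46.9, 69.5 and 66.3 CPM in Nudt7 livers and 58.4, 56.3, 59.5 and 52.2 CPM in GFP livers, again with the GFP range inside the Nudt7 range (log2 fold change 0.09, SE 0.14, 95% interval −0.20 to 0.39, edgeR adjusted p = 0.854). Of the Pdk1 reads, 59.3% ± 6.2 in Nudt7 and 57.0% ± 3.2 in GFP livers fell on its coding transcript of 5185 bases, and 34.0% ± 5.4 and 36.8% ± 1.6 on a processed transcript of 2972 bases that is annotated as non-coding (SD, n = 4 each). Pdk3, the remaining kinase gene and no member of the list, had 3 to 10 reads per library and was too low to be tested.

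On the length-normalised scale (TPM), on which levels of different genes can be compared, Pdk4 and Pdk2 were the main kinase transcripts. Pdk4 made up 30.4%, 57.9%, 30.0% and 29.0% of summed kinase TPM in Nudt7 livers and 50.9%, 39.1%, 32.8% and 56.8% in GFP livers. High and low shares thus occurred in both groups, and the groups overlapped. The means were 36.8% ± 14.1 and 44.9% ± 10.9 for Pdk4, 40.9% ± 8.0 and 36.3% ± 7.6 for Pdk2, and 22.0% ± 7.3 and 18.2% ± 3.6 for Pdk1, in Nudt7 and GFP livers (SD, n = 4 each). Pdk4 exceeded Pdk2 in 1 of 4 Nudt7 and 3 of 4 GFP livers, and the ratio of Pdk4 to Pdk2 ran from 0.609 to 1.94 over the 8 livers.

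**Figure D3:**
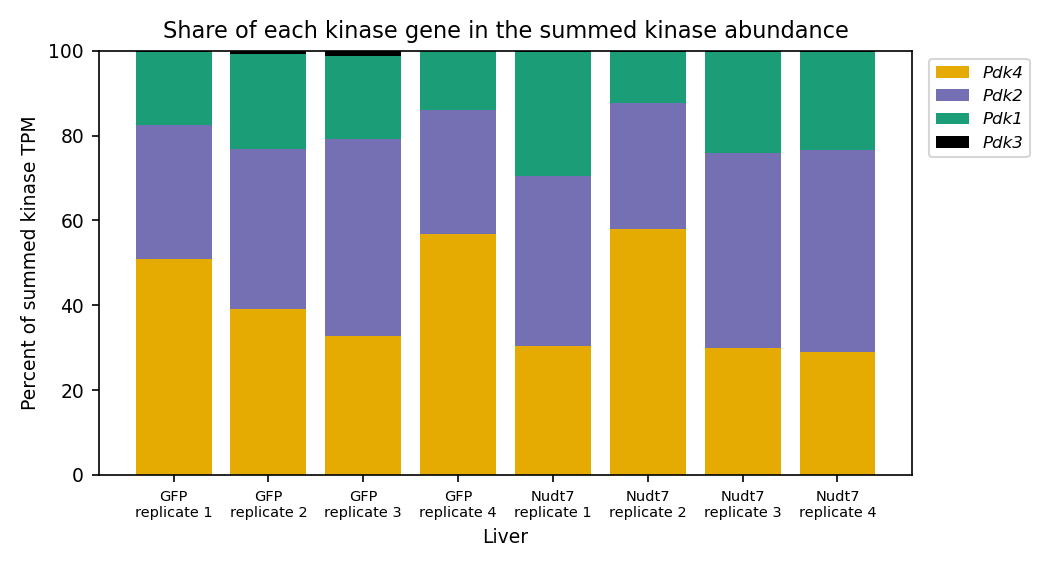
Share of each kinase gene in the summed TPM of Pdk1, Pdk2, Pdk3 and Pdk4 (percent, stacked bars), with 1 bar per liver. Pdk4 takes 57.9% in Nudt7 replicate 2 and 29.0% to 30.4% in the other Nudt7 livers, against 32.8% to 56.8% in GFP livers.

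Levels of the complex's own genes were close in both groups. Pdha1, on chromosome X (160122209 to 160138413, minus strand), encodes the alpha subunit of the first enzyme, which carries the sites that the kinases phosphorylate. It stood at 122, 116, 130 and 133 CPM in Nudt7 livers and 119, 118, 129 and 132 CPM in GFP livers. These ranges almost coincide, and the 95% interval of its log2 fold change was the narrowest of the 10, from −0.23 to 0.25 (0.01, SE 0.11, edgeR adjusted p = 0.985). The testis form, Pdha2, was listed at 0 in all 8 livers, which allows up to 0.127 to 0.268 CPM per library (3 counts, counting error only).

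Pdhb, on chromosome 14 (8165996 to 8173025, minus strand), encodes the beta subunit that pairs with the Pdha1 product. Its level was 87.8, 86.9, 133 and 76.9 CPM in Nudt7 livers and 81.7, 80.9, 82.9 and 83.0 CPM in GFP livers. The GFP livers differed from each other by 1.03-fold at most, and the high Nudt7 value came from replicate 3, the library that stood apart. The log2 fold change was 0.23 (SE 0.16, 95% interval −0.13 to 0.58, edgeR adjusted p = 0.713), and it was 0.04 without that replicate. The value carries a limit of mapping, since 17.3% of the 31-base words in Pdhb transcripts also occur in transcripts of other genes, mostly Gm6123.

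Dlat, on chromosome 9 (50634633 to 50659780, minus strand), encodes the acetyltransferase that forms the core of the complex and hands the acetyl group to coenzyme A. It had the smallest unadjusted p of the 10 (0.0709). Its level was 40.2, 43.3, 39.0 and 40.7 CPM in Nudt7 livers and 50.3, 44.1, 42.2 and 54.8 CPM in GFP livers. The groups overlapped by 1 liver on each side, because Nudt7 replicate 2 lay above GFP replicate 3. The log2 fold change was −0.23 (SE 0.12, 95% interval −0.49 to 0.02), a fold of 0.851, with an edgeR adjusted p = 0.639. It was −0.14 without GFP replicate 4 and −0.28 to −0.20 without any other liver. Its coding transcript of 4035 bases, taken alone, stood at 13.4, 13.9, 9.8 and 13.9 TPM in Nudt7 and 17.9, 15.7, 15.0 and 17.5 TPM in GFP livers. This was 1 of 30 member transcripts with a mean of at least 1 TPM, and the single one whose groups did not overlap, where 4.47% of all such transcripts did not (3.55% lower and 0.925% higher). With protein-coding transcripts alone, an alternative chosen after seeing the data, the gene stood at −0.29 (edgeR adjusted p = 0.546). Its unadjusted edgeR p was under 0.05 in that fit, as for 1074 of 12544 genes. The same held in a planned fit with the trend in transcript length removed, as for 1360 of 13678 genes.

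Dld, on chromosome 12 (31331277 to 31351453, minus strand), encodes the lipoamide dehydrogenase that this complex shares with the 2-oxoglutarate and branched-chain complexes and the glycine cleavage system. It stood at 111.3, 106, 100 and 122.6 CPM in Nudt7 and 104.4, 99.1, 95.7 and 111 CPM in GFP livers. The groups overlapped, and the GFP range reached lower (log2 fold change from counts 0.10, SE 0.12, 95% interval −0.15 to 0.35, edgeR adjusted p = 0.812). Per length it stood at 73.5, 68.8, 54.7 and 85.01 TPM in Nudt7 and 70.3, 68.0, 65.6 and 70.7 TPM in GFP livers. On that scale the GFP range lay inside that of Nudt7, whose lowest value was that of replicate 3. Pdhx, on chromosome 2 (103021075 to 103073513, minus strand), encodes the protein that tethers the Dld product to the core. Its level was 30.2, 26.4, 40.1 and 28.9 CPM in Nudt7 and 29.4, 26.6, 26.6 and 26.7 CPM in GFP livers. As for Pdhb, the highest value was that of Nudt7 replicate 3, without which the log2 fold change fell from 0.20 (SE 0.14, 95% interval −0.10 to 0.50, edgeR adjusted p = 0.708) to 0.07.

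**Figure D4:**
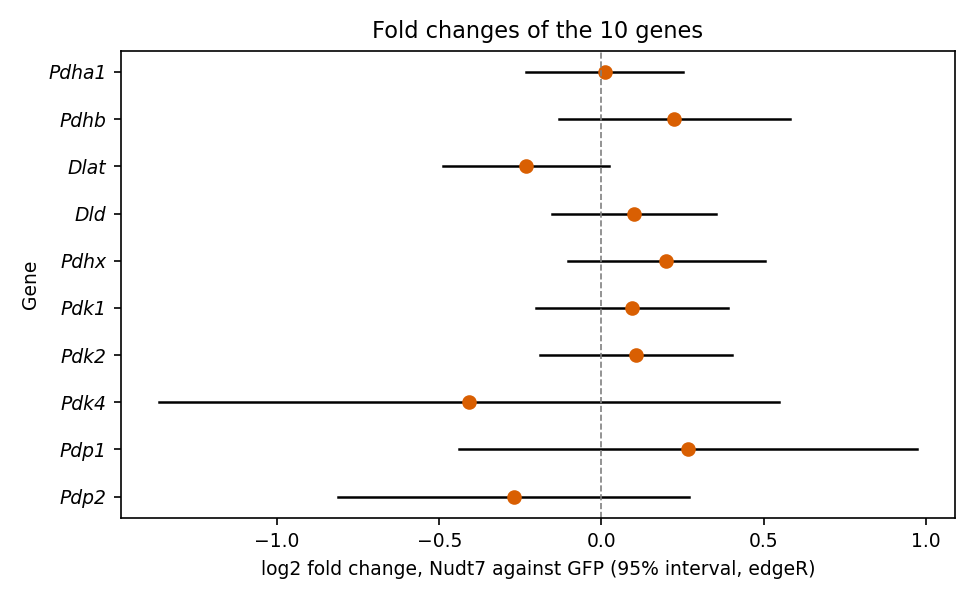
Log2 fold change of each of the 10 genes in Nudt7 against GFP livers (points) with its 95% interval from the edgeR fit (lines), n = 4 livers per group. Each interval includes 0 (dashed line), and those of Pdk4, Pdp1 and Pdp2 are the widest.

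Per length (TPM), the phosphatase genes were the lowest of the set, while in CPM Pdp2 lay above Pdhx on average. Pdp1, on chromosome 4 (11958184 to 11966452, minus strand), encodes the calcium-stimulated catalytic subunit and had 12 to 28 reads per library. It stood at 1.25, 2.03, 1.57 and 1.24 CPM in Nudt7 and 0.969, 0.876, 2.01 and 1.22 CPM in GFP livers (log2 fold change 0.27, SE 0.32, 95% interval −0.44 to 0.97, edgeR adjusted p = 0.823). The groups overlapped, and with so few reads counting error alone is large for this gene. Pdp2, on chromosome 8 (104591451 to 104599026, plus strand), encodes the isoform reported to fall in some tissues in starvation. It stood at 33.3, 51.1, 26.6 and 27.0 CPM in Nudt7 and 51.0, 36.7, 51.8 and 27.1 CPM in GFP livers. Both groups thus held high and low livers, and the log2 fold change was −0.27 (SE 0.25, 95% interval −0.81 to 0.27, edgeR adjusted p = 0.771). It was −0.52 without Nudt7 replicate 2 (edgeR unadjusted p under 0.05, adjusted p = 0.525) and −0.14 without GFP replicate 1 or 3. Pdp2 made up 90.5% ± 1.9 of summed phosphatase TPM in Nudt7 and 93.8% ± 1.6 in GFP livers (SD, n = 4 each). Pdpr, which encodes the regulatory subunit of the phosphatase and was not a member of the list, stood at 22.2 CPM in Nudt7 replicate 3 and at 33.9 to 44.6 CPM in the other 7 livers (log2 fold change −0.09, SE 0.19, edgeR adjusted p = 0.907).

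Per length, Pdhb had the highest mean of the 10 genes in both groups, at 104 ± 10.2 TPM in Nudt7 and 100.4 ± 5.9 TPM in GFP livers. Dld (70.5 ± 12.6 and 68.7 ± 2.3 TPM) and Pdha1 (65.5 ± 8.3 and 69.8 ± 4.6 TPM) followed and were not separable, with Dld above Pdha1 in 6 of 8 livers. Pdk4 (52.4 ± 38.3 and 70.6 ± 25.2 TPM) had no fixed place, because its 8 values ran from 28.2 to 109.6 TPM, and it exceeded Pdhb in Nudt7 replicate 2 and GFP replicate 4. Pdk2 (51.6 ± 8.6 and 54.9 ± 6.8 TPM) was above Dlat in 8 of 8 livers. Dlat (29.3 ± 4.6 and 35.2 ± 2.9 TPM) and Pdk1 (26.9 ± 5.6 and 27.5 ± 2.6 TPM) overlapped, and Pdhx (20.2 ± 1.6 and 18.4 ± 1.1 TPM), Pdp2 (8.35 ± 3.32 and 10.8 ± 3.4 TPM) and Pdp1 (0.852 ± 0.297 and 0.688 ± 0.239 TPM) came last in that order in every liver (SD, n = 4 each). The ratio of Pdhb to Pdha1 ran from 1.22 to 2.11, with the highest value in Nudt7 replicate 3.

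**Figure D5:**
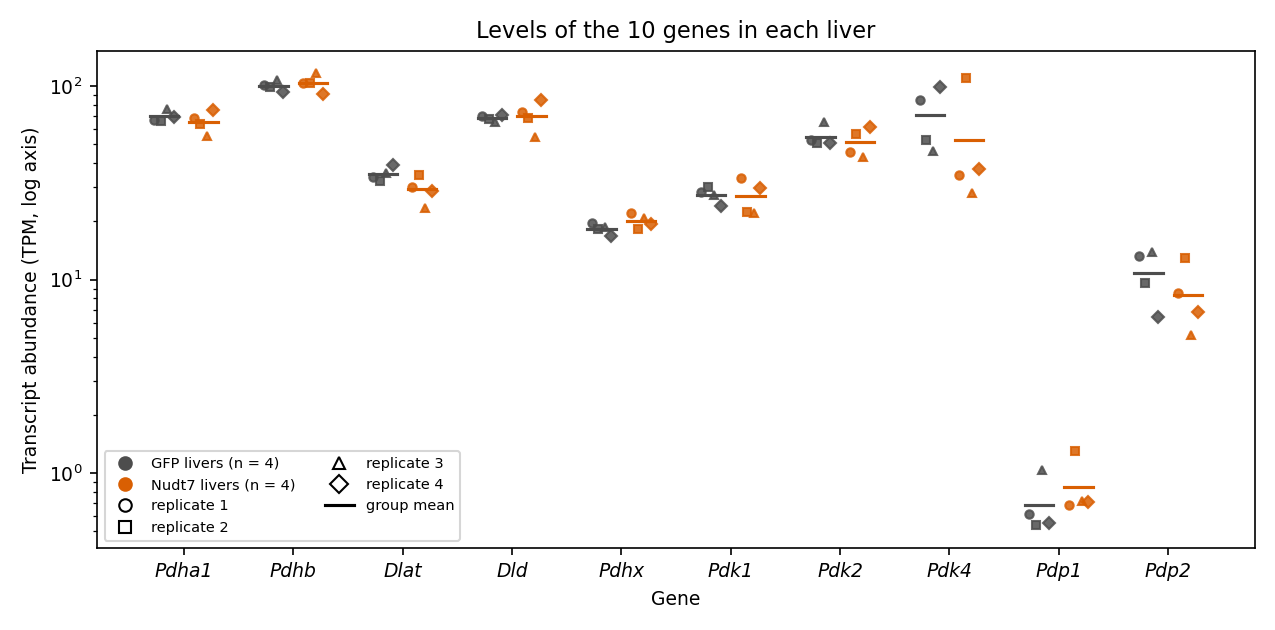
Level of each of the 10 genes in every liver (TPM, log axis), coloured by group, with marker shapes for the replicates and lines for the group means. Pdp1 lies near 1 TPM and Pdhb near 100 TPM, and Pdk4 shows the widest scatter within each group.

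Pdk4 was compared with the other 9 members across the 8 livers. Dlat was higher where Pdk4 was higher (Pearson r = 0.79, exact permutation p = 0.0162, adjusted p = 0.0728 over 9 relations; Spearman rho = 0.83, exact permutation p = 0.0154, adjusted p = 0.0692). Without the 2 livers farthest from the Pdk4 median, Nudt7 replicate 2 and GFP replicate 4, r was 0.98. Pdk1 was lower where Pdk4 was higher (r = −0.80, exact permutation p = 0.0131, adjusted p = 0.0728; rho = −0.83, exact permutation p = 0.0154, adjusted p = 0.0692), but r was −0.47 without those livers, so that relation rests on them. Neither relation passed after adjustment, and for the other 7 members r lay between −0.54 and 0.40.

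Among 12267 named genes with a mean of at least 1 CPM, those most like Pdk4 over the 8 livers by Pearson r of log2 CPM were Heatr1 (0.97), Map1s (0.97), Rab30 (0.96), Ung (0.95) and Sowahc (0.94). Those most opposite were Gna14 (−0.97), Iqcb1 (−0.97), Bambi (−0.94), Rhbg (−0.93) and Sh3glb2 (−0.93). Heatr1 encodes a factor of ribosome assembly, Rab30 a small GTPase of the Golgi, Ung a uracil-DNA glycosylase and Bambi a decoy receptor for TGF-beta signals. Rab30, whose 3 highest livers were also the 3 highest in Pdk4, stood at 46.9, 80.1, 45.6 and 49.7 CPM in Nudt7 and 83.4, 67.2, 59.6 and 91.3 CPM in GFP livers. These genes were picked as the extremes of many and carry no test.

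The genes around the complex were read from fixed lists, beside a median log2 fold change of −0.001 over all tested genes. For comparison with each list, 8.28% of all tested genes had an unadjusted edgeR p under 0.05. At the adjusted threshold 0.117% passed, 0.0439% higher and 0.0731% lower. Of 16 genes of pyruvate supply and other uses of pyruvate, 0 passed in edgeR and 3 had an unadjusted p under 0.05, with a median of −0.04. Gpt2, a mitochondrial alanine transaminase that makes pyruvate from alanine, stood at 863 ± 78.6 CPM in Nudt7 and 1093 ± 134 CPM in GFP livers (log2 fold change −0.34, SE 0.14, edgeR adjusted p = 0.561). Slc16a1, a pyruvate and lactate transporter gene, was at 0.34 (SE 0.15) and Me1, a malic enzyme gene, at 0.30 (SE 0.13), with edgeR adjusted p = 0.581 and 0.590. Mpc1 and Mpc2, the subunits of the mitochondrial pyruvate carrier, were at −0.07 (SE 0.14) and −0.13 (SE 0.22), and Pcx, the pyruvate carboxylase gene of glucose synthesis, at 0.06 (SE 0.13).

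Of 11 tested genes of the related 2-oxo acid dehydrogenases and the glycine cleavage system, which use the same lipoyl chemistry, 10 were positive with a median of 0.07, 0 passed in edgeR and 0 had an unadjusted p under 0.05. Amt was at 0.27 (SE 0.16, edgeR adjusted p = 0.667), Gcsh at 0.18 (SE 0.14) and Dlst at 0.13 (SE 0.12), but on the log2(TPM + 1) scale, where the median of all genes was −0.10, Gcsh and Dlst were at −0.02 and −0.08. Of 17 tested genes that supply the lipoate and thiamine cofactors, 15 were positive with a median of 0.13, 0 passed in edgeR and 0 had an unadjusted p under 0.05. Glrx5, an iron-sulfur cluster gene, was at 0.56 (SE 0.33, edgeR adjusted p = 0.670) and Lias, the lipoate synthase gene, at 0.16 (SE 0.13). Nudt7 replicate 3, the library that stood apart, was the highest liver for Glrx5, Lias and Gcsh. For Glrx5 it held 149.9 CPM, against 43.6 to 60.9 CPM in the other livers. Leaving out 1 liver gave 0.04 to 0.76 for Glrx5, 0.07 to 0.23 for Lias and 0.04 to 0.25 for Gcsh. Of 7 tested genes of acetyl-CoA use and mitochondrial deacylation, 0 passed in edgeR and 0 had an unadjusted p under 0.05. Acly, which makes cytosolic acetyl-CoA from citrate, was at 0.21 (SE 0.11, edgeR adjusted p = 0.641; −0.05 on the log2(TPM + 1) scale) and Sirt3 at −0.16 (SE 0.11, edgeR adjusted p = 0.710).

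Of 20 genes reported to control Pdk4, 15 had a negative fold change, with a median of −0.14. In edgeR 0 passed and 4 had an unadjusted p under 0.05, which 8.28% of all tested genes had. DESeq2 did call Lpin1 (adjusted p = 3.85e-05) and Srebf1 (adjusted p = 0.00318). Lpin1, a coactivator of PPAR alpha as well as a lipid phosphatase, was at −1.66 (SE 0.31, edgeR adjusted p = 0.0990) and Srebf1 at 0.75 (SE 0.15, edgeR adjusted p = 0.109). Hnf4a was at −0.43 (SE 0.14, edgeR adjusted p = 0.422) and Ppargc1a, the PGC-1 alpha gene, at −0.75 (SE 0.32, edgeR adjusted p = 0.581). The receptor genes Ppara (−0.10, SE 0.15), Nr3c1 (−0.04, SE 0.16) and Esrra (−0.17, SE 0.12) had smaller fold changes.

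Fasting targets of FOXO factors and the glucocorticoid receptor, both known to act on Pdk4, had a median of −0.66 over 12 tested genes. Of these, 10 were negative, 8 had an unadjusted p under 0.05 and 2 fell in edgeR. Over all tested genes 8.28% had an unadjusted edgeR p under 0.05, and 0.0731% fell at the adjusted threshold. Igfbp1, a secreted growth factor binding protein gene, stood at 327, 184, 223 and 334 CPM in Nudt7 and 1138, 1070, 566 and 1544 CPM in GFP livers (log2 fold change −2.02, SE 0.29, edgeR adjusted p = 0.0400). Fkbp5, a co-chaperone gene of the glucocorticoid receptor, also fell (−1.11, SE 0.18, edgeR adjusted p = 0.0476). The groups did not overlap for either gene. Leaving out 1 liver ended the edgeR call of Igfbp1 in 7 of 8 cases (−2.22 to −1.78, adjusted p up to 0.162) and that of Fkbp5 in 8 of 8 (−1.22 to −0.96, adjusted p up to 0.188), while DESeq2 called both. From the same list DESeq2 also called Zbtb16 (−0.97, DESeq2 adjusted p = 0.00854) and Ddit4 (−2.05, DESeq2 adjusted p = 0.0215). Their edgeR adjusted p was 0.175 and 0.179. Nudt7 replicate 2, the liver highest in Pdk4, was the lowest of the 8 in Igfbp1 but the highest of its group in Fkbp5, at 168 CPM against 96.5 to 145 CPM. PPAR alpha targets had a median of 0.22 over 14 tested genes, 11 of them positive, and 3 had an unadjusted p under 0.05. Cd36, the fatty acid uptake receptor gene, rose (1.17, SE 0.18, edgeR adjusted p = 0.0423), and it was lowest among Nudt7 livers in replicate 2, at 46.5 CPM against 68.6 to 80.5 CPM. Its edgeR call ended in 7 of 8 such cases (1.10 to 1.32, adjusted p up to 0.161). These lists were chosen with earlier results of the same livers known, so their directions are not independent evidence.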

How the data were processed

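Livers of 4 Nudt7 and 4 GFP mice were compared, grouped by the transgene label. FastQC, Salmon, DESeq2 and the GRCm38 build are named in the submitters' processing notes; the version and index of Salmon are not stated there. Each deposited file gives estimated counts and TPM for every transcript, per the file headers, with its length and effective length. Of 109282 transcripts, 107987 (98.8%) were named from GENCODE M21, and the rest (0.552% to 1.06% of reads) entered no sum. Both quantities were then added up within each gene, and counts were rounded.

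The test was edgeR 4.0.16 (R 4.3.3), quasi-likelihood with robust estimation, TMM scaling and filterByExpr, two-sided, adjusted over 13678 genes at a threshold of 0.05. Intervals come from that fit and include variation between livers. Alternatives used DESeq2 1.42.0, limma 3.58.1 on voom values and on log2(TPM + 1) or log2(TPM + 0.1), other scaling, no filter, 2 length corrections, and each liver left out; the fit on protein-coding transcripts was added after seeing the data. The procedure was also run on counts simulated from the fitted mean and spread of each gene. Those counts held no length shift like that of Nudt7 replicate 3, and the outcome is not reported here. The 31-base words shared between genes were counted in GENCODE transcripts. Promoters are from RefSeq, with entries for 9 of 10 genes. The labels do not pair the mice. The edgeR p-values set each group difference against the spread between these livers, estimated partly across genes. The kit used PCR and no molecular identifiers are mentioned, so a floor of 3 counts covers counting error only.

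The genes named were the 10 members, Nudt7, Pdk3, Pdha2, Pdpr, up to 4 genes per list with the smallest p, and the 5 genes most and least like Pdk4. Mpc1, Mpc2, Pcx, Ppara, Nr3c1, Esrra and marker genes were added after their values were seen. The members and lists were chosen with earlier results of these data known.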

Additional observations from a re-analysis of the deposited data

Results flagged for a closer look

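Among 22 groups of 4 livers examined (the 10 genes and Pdpr in both groups), 2 had a liver far from the other 3, where chance gives about 1 in 20. Pdk4 in Nudt7 replicate 2 stood at 228.6 CPM, against 82.2 CPM in the next highest liver of its group, a gap of 0.892 of the group's range. Pdhx in GFP replicate 1 stood at 29.35 CPM, against 26.7 CPM in the next, a gap of 0.946 of a narrow range.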

How the results depend on the processing

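Under 17 alternatives to the main test, 161 of 170 member fold changes kept their direction and none of the 170 passed (lowest adjusted p 0.295, Pdk4 without Nudt7 replicate 2), while 9 changed sign, each at a small value. On log2(TPM + 1) Pdha1 was at −0.10, Pdk1 at −0.05 and Pdk2 at −0.09, and on log2(TPM + 0.1) they were at −0.10, −0.05 and −0.10; TPM moved the median of all genes to −0.10 and −0.12. On both TPM scales Gcsh (−0.02), Dlst (−0.08) and Acly (−0.05) also changed sign. With limma-voom weights Pdk1 was at 0.00 and Pdpr at 0.01, and leaving out 1 liver gave −0.20 to 0.10 for Pdpr and −0.01 to 0.41 for Isca2 (sign changed without Nudt7 replicate 3). Leaving out 1 liver gave Pdha1 values of −0.02 to 0.06. Leaving out 1 liver gave 1 to 8 genes called higher and 1 to 12 lower, against 6 and 10. DESeq2 called 88 higher and 64 lower, limma-voom with weights 58 and 42, both TPM fits 3 and 5, the fit with no filter 15 higher, the fit with the length trend removed 23 higher, and effective-length offsets 6 lower. For these shifts the cause was not tested. By estimated counts in place of TPM, Pdp1 made up 4.35% and Pdp2 95.7% of the phosphatases in Nudt7 livers and 3.06% and 96.9% in GFP livers, since TPM divides by length. No paired analysis was possible because the labels give the groups no shared replicate numbers. Depth limits Pdp1 most.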
